A study of Mus musculus with 6 samples.

Results

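The growth hormone and insulin-like growth factor (IGF) axis was examined in livers with and without a Retnla transgene through 10 genes chosen by name: Ghr, Jak2, Stat5a, Stat5b, Socs2, Cish, Igf1, Igfals, Igfbp2 and Igfbp4. They are 10 of the 18193 genes that the array annotation names singly, and they are read by 28 probe sets, the short sets of oligonucleotides that measure 1 transcript on an Affymetrix array. Of these probe sets 27 passed the filter on dim signals described below, and every one of the 10 genes had at least 1 that passed. Where a gene had several probe sets, the brightest in the mean of the 6 arrays stood for the gene and the others are given beside it.

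The livers came from 3 mice carrying the Retnla transgene (Retnla-Tg 5, 6 and 7, called Tg here) and 3 mice without it (Retnla-non-Tg 1, 2 and 3, called non-Tg). The Retnla product, resistin-like molecule alpha, is secreted and belongs to the resistin family. All 6 were male mice of the C57BL6/J background, aged 3 months, that had been moved at 8 weeks of age to a high-fat diet with 21% fat and 0.15% cholesterol and had eaten it for 4 weeks; no group on a standard diet is part of the comparison. Neither the promoter of the transgene nor the number of founder lines is given in the sources used here. Each mouse gave 1 Affymetrix Mouse Genome array, so the mouse is the replicate.

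Growth hormone, released by the pituitary, binds the growth hormone receptor on hepatocytes and activates the kinase JAK2 bound to it, which phosphorylates the transcription factors STAT5A and STAT5B. These enter the nucleus and switch on Igf1, whose product is the main circulating IGF, and Igfals, whose product holds IGF1 in a long-lived complex in blood. They also switch on Socs2 and Cish, whose products restrain the receptor in a negative feedback. In male mice growth hormone is released in pulses and STAT5 activity in the liver follows them, which underlies many of the differences between male and female liver.

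The values are log2 signals as deposited, and a difference of 1 is a doubling. The tissue showed its defining genes: 7 of 7 hepatocyte markers passed the filter, and their summed linear signal was 485045 to 512267 in Tg and 466806 to 504409 in non-Tg livers. None of 3 adipocyte markers and 1 of 5 exocrine pancreas markers passed it. Of the markers of other liver cells, 6 of 6 for Kupffer cells had a higher Tg mean (summed signal 10692 to 27454 in Tg and 13901 to 15993 in non-Tg livers) and 5 of 7 for stellate cells a lower one (11743 to 14149 in Tg and 13107 to 17277 in non-Tg livers). Markers of T, NK and B cells had a higher Tg mean in 5 of 6 (549 to 891 in Tg and 426 to 646 in non-Tg livers, median log2 difference 0.62), of sinusoidal endothelium in 5 of 6 (12032 to 14259 in Tg and 11804 to 13037 in non-Tg livers), and those of bile duct a lower one in 3 of 4 (241 to 462 in Tg and 350 to 552 in non-Tg livers, median -0.48). Neutrophil markers had a lower Tg mean in 2 of 3 (147 to 398 in Tg and 305 to 382 in non-Tg livers). Of all these markers 0 passed the test; their part in the results was not tested. Retnla was at 16.04, 15.91 and 16.04 in Tg livers, against 6.03, 7.41 and 6.48 in non-Tg livers, as the labels require. The arrays also fell into 2 sets by bioC, a bacterial transcript added as a control: 10.99 to 11.27 on Tg 7, non-Tg 2 and non-Tg 3, and 9.58 to 9.71 on Tg 5, Tg 6 and non-Tg 1. The labels name no batch. These sets touch several genes of the axis, and the values within each set are given where they do.

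None of the 10 genes passed the test. limma, fitted across 12705 genes with Benjamini-Hochberg adjustment, called 0 of the 10 at an adjusted p under 0.05, with adjusted p from 0.807 to 0.991; over all genes it called 2, or 0.0157%. These 2 were Retnla and Nnt, a mitochondrial transhydrogenase whose gene carries a deletion in the C57BL6/J strain; Nnt, named after its values were seen, was at 13.01, 12.71 and 12.70 in Tg livers, against 11.30, 11.37 and 11.44 in non-Tg livers (1.43 ± 0.12, SE; limma adjusted p = 0.00197). Its part in the results of the axis was not tested. At an unadjusted p under 0.05 the fit counted 1 of the 10, Socs2, against 6.05% of all genes. That count was 3 (Socs2, Cish and Igfbp2) with the bioC array sets as a block and 2 (Socs2 and Igfbp2) with each array centred on its median. It was 0 without the trend, with robust moderation or with probe sets averaged, and leaving out each mouse gave 0 to 2. The Tg mean was lower for 7 of the 10 genes and higher for 3; over all genes 47.9% had a lower Tg mean. With median centring 9 of the 10 and 59.6% of all genes were lower. The median log2 difference, Tg minus non-Tg, was -0.15 over the 10 genes and 0.01 over all genes. Over the 10 genes it was -0.07 without Tg 7, with 6 lower, -0.08 without non-Tg 1, and -0.22 with median centring. For 8 of the 10 the 95% confidence interval of the brightest probe set lay wholly within a 2-fold change in either direction, and for Socs2 and Cish it reached further. The interval of the dimmest Igfbp4 probe set also reached further, from -0.25 to 1.57. A gene that did not pass is not thereby shown to be equal in the 2 groups.

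**Figure D1:**
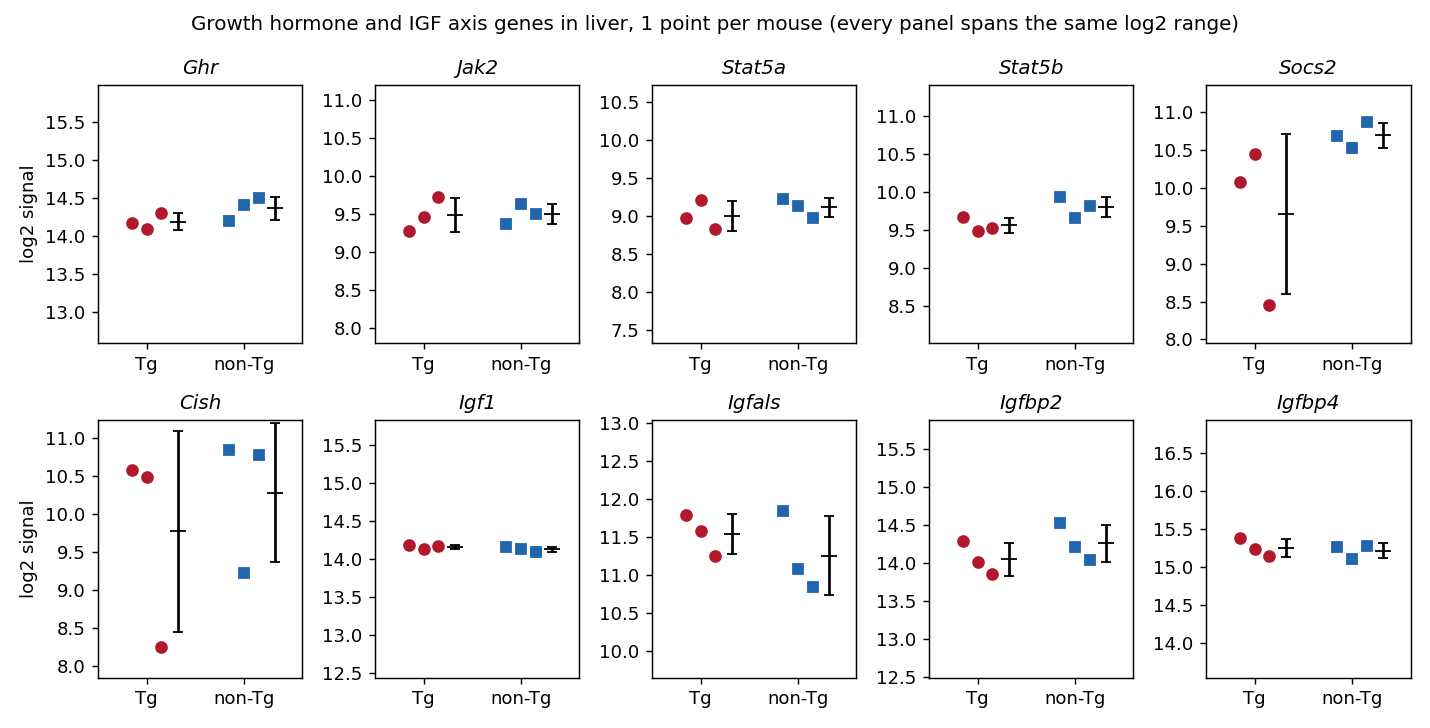
Log2 signal (vertical axis) of the 10 genes in each mouse, with Tg mice as circles and non-Tg mice as squares, and the mean ± SD of 3 mice beside each group. All panels span the same log2 range, so that the wide spread of Socs2 and Cish, with the lowest point of each at 8.45 and 8.24 in Tg 7, can be set against the narrow spread of Igf1, from 14.09 to 14.19.

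At the top of the pathway, the receptor and its kinase differed little between the groups. Ghr, the growth hormone receptor, was at 14.17, 14.09 and 14.31 in Tg livers and at 14.20, 14.41 and 14.50 in non-Tg livers. The groups overlapped through Tg 7 and non-Tg 1. The log2 difference of Ghr was -0.18 ± 0.10 (SE; limma adjusted p = 0.82), or 0.883-fold with a 95% confidence interval of 0.755 to 1.03. The other 2 Ghr probe sets gave -0.14 and -0.03. All 3 Ghr probe sets were higher on the arrays with more bioC, without overlap, by 0.15 to 0.25; within the higher and the lower bioC set the Ghr difference between Tg and non-Tg was -0.15 and -0.07, and a fit with a block for the sets gave -0.11. Leaving out non-Tg 3 also gave -0.11 for Ghr, and leaving out each of the other mice gave -0.13 to -0.27.

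Jak2, the kinase that the receptor activates, was at 9.28, 9.46 and 9.73 in Tg livers and 9.37, 9.64 and 9.51 in non-Tg livers. The Tg mice held both the lowest and the highest value. The log2 difference was -0.02 ± 0.17 (SE; limma adjusted p = 0.991), and the 95% confidence interval of -0.39 to 0.36 spans both directions. The second Jak2 probe set stood at 0.32 ± 0.23 (SE), and the sign of the first turned to 0.08 with the array sets as a block.

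The STAT5 factors, encoded by neighbouring genes, both had a lower Tg mean. Stat5b, the form that carries most of the growth hormone response in mouse liver, was at 9.67, 9.49 and 9.52 in Tg livers, against 9.93, 9.66 and 9.82 in non-Tg livers. The single crossing was that of Tg 5, at 9.67, over non-Tg 2, at 9.66. The log2 difference of Stat5b was -0.24 ± 0.15 (SE; limma adjusted p = 0.824; 2-sided exact permutation p = 0.2), but its second probe set differed the other way, at 0.23 ± 0.20 (SE), and the mean of both was -0.0044. Stat5a was at 8.97, 9.21 and 8.83 in Tg livers and 9.23, 9.14 and 8.98 in non-Tg livers, a difference of -0.11 ± 0.17 (SE; limma adjusted p = 0.909). It was -0.03 without Tg 7, -0.06 without non-Tg 1, -0.18 without non-Tg 3 and -0.22 without Tg 6. The second Stat5a probe set stood at -0.35 ± 0.25 (SE), with every Tg value under every non-Tg value.

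The largest difference among the 10 genes was that of Socs2, the suppressor of cytokine signalling that marks the growth hormone receptor for degradation. Socs2 was at 10.07, 10.44 and 8.45 in Tg livers, against 10.68, 10.53 and 10.86 in non-Tg livers. All 3 Tg mice lay below all 3 non-Tg mice, and Tg 7 lay 1.62 below the next mouse. Socs2 was the only 1 of the 10 whose groups did not overlap; over all genes 11.7% had groups without overlap, 5.64% lower and 6.04% higher in Tg livers. It was also the only 1 whose difference reached 2-fold, as it did for 3.65% of all genes. The log2 difference was -1.03 ± 0.42 (SE), or 0.488-fold with a 95% confidence interval of 0.256 to 0.932, at a limma p of 0.0331 before and 0.807 after adjustment. The exact permutation p of Socs2 was 0.1, which is the lowest value open to a design of 3 mice against 3.

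The size of the Socs2 difference rested on Tg 7. Without that mouse it was -0.43 ± 0.17 (SE; limma adjusted p = 0.498), and without each of the other mice it ran from -0.95 to -1.43. Within the higher bioC set, which sets Tg 7 against 2 non-Tg mice, Socs2 differed by -2.24, and within the lower set, which sets Tg 5 and Tg 6 against non-Tg 1, by -0.42. With the sets as a block the difference was -1.33 ± 0.35 (SE; limma adjusted p = 0.721). A second bright Socs2 probe set gave 9.60, 10.25 and 8.50 in Tg livers and 10.68, 10.69 and 10.56 in non-Tg livers, again without overlap, a difference of -1.19 ± 0.35 (SE). The 4 remaining Socs2 probe sets were dim. Of these, 3 passed the filter and stood at 0.58, 1.02 and 0.0018, and the fourth lay under it; the mean of the 5 that passed differed by -0.13. In a piece of liver, fewer cells that make a transcript and less of it per cell cannot be told apart.

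Cish, another STAT5-driven inhibitor of cytokine receptors, shared its lowest array with Socs2. Cish was at 10.58, 10.49 and 8.24 in Tg livers, against 10.84, 9.22 and 10.78 in non-Tg livers. Tg 7 was lowest and non-Tg 2 next, while the other 4 mice lay between 10.49 and 10.84. The log2 difference was -0.51 ± 0.61 (SE; limma adjusted p = 0.886; 2-sided exact permutation p = 0.5), and the 95% confidence interval ran from -1.88 to 0.87. Without Tg 7 the sign turned, to 0.26 ± 0.42 (SE). With the array sets as a block Cish differed by -1.03 ± 0.43 (SE; limma adjusted p = 0.85). Within the higher bioC set, where Tg 7 is the only Tg mouse, Cish differed by -1.76, and within the lower set by -0.30. The low Cish value of non-Tg 2 had no counterpart in Socs2, which was at 10.53 in that mouse.

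**Figure D2:**
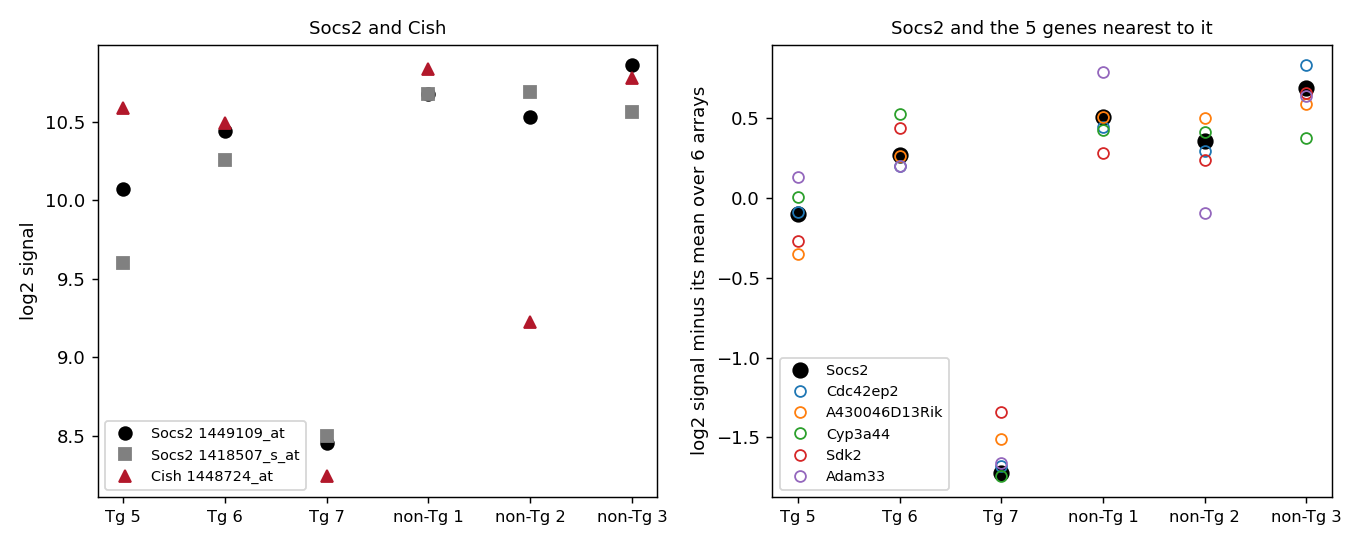
Left, log2 signals of 2 Socs2 probe sets and of Cish on each array, Tg mice first; Tg 7 is lowest for all 3, at 8.45, 8.50 and 8.24. Right, Socs2 and the 5 genes with the most similar profile, each as log2 signal minus its own mean over the 6 arrays. All of them are lowest in Tg 7, which follows from choosing them by likeness to Socs2.

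STAT5 binds paired half-sites of the form TTCNNNGAA, a motif that reads the same on both strands. It was searched for in the RefSeq promoter windows of build GRCm38.p6, 250 bases before to 50 after each start, which held 15 windows for 9 of the 10 genes; Socs2 had none. The motif occurred in 8.3% of all 32851 windows and 2 or more times in 0.457% of them. Among the 9 genes it was found for Cish and Igfals, in 3 of the 15 windows. The Cish window held 2 copies, at bases 1 to 9 and 12 to 20 counted from the annotated start, and the first Igfals window held 1, at bases -236 to -228; a window at a second Igfals start held TTCCTAGAA. The stretches with the motif are shown because Cish and Igfals are the genes of the axis whose windows hold it, with the motif in capitals, for Cish on the plus strand at chr9:107296559-107296678 and for Igfals on the plus strand at chr17:24877594-24877693.
Cish: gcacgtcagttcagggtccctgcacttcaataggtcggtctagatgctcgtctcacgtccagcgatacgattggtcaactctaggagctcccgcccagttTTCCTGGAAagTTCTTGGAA
Igfals: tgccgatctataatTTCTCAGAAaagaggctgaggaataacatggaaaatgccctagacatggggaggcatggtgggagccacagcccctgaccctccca
A match to these letters is a description of the sequence and was not tested as a binding site in these livers.

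The hormone at the end of the pathway was the steadiest of the 10 genes on its brightest probe set. Igf1 was at 14.19, 14.14 and 14.17 in Tg livers and 14.16, 14.14 and 14.09 in non-Tg livers. The groups overlapped within 14.09 to 14.19, and 0.3% of all genes tested had a smaller pooled SD within groups than the 0.033 of Igf1. The log2 difference was 0.03 ± 0.07 (SE; limma adjusted p = 0.95), or 1.02-fold with a 95% confidence interval of 0.911 to 1.15. The low Socs2 and Cish signals of Tg 7 stood beside an Igf1 signal of 14.17 in the same liver.

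The other 3 Igf1 probe sets read lower in Tg livers. The lowest of them in difference was at 13.25, 13.51 and 13.65 in Tg livers and 13.70, 13.70 and 13.87 in non-Tg livers, a difference of -0.29 ± 0.11 (SE; limma adjusted p = 0.858 over 27022 probe sets). The remaining pair stood at -0.12 ± 0.08 and -0.18 ± 0.10 (SE). In all 3 the groups did not overlap. Over the 27 probe sets of the 10 genes that passed the filter, 6 were lower in Tg livers without overlap and 0 were higher without overlap, where 5.33% and 5.83% of all probe sets were. These 6 belong to Igf1 (3), Socs2 (2) and Stat5a (1), and probe sets of a gene share its transcripts, so they are not separate observations. An unadjusted limma p under 0.05 was reached by 3 of the 27, the bright Socs2 pair and this Igf1 probe set, all lower, against 2.76% of all probe sets, and 0 of the 27 passed after adjustment, against 0.0074%. With the mean of its probe sets in place of the brightest, Igf1 differed by -0.14.

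**Figure D3:**
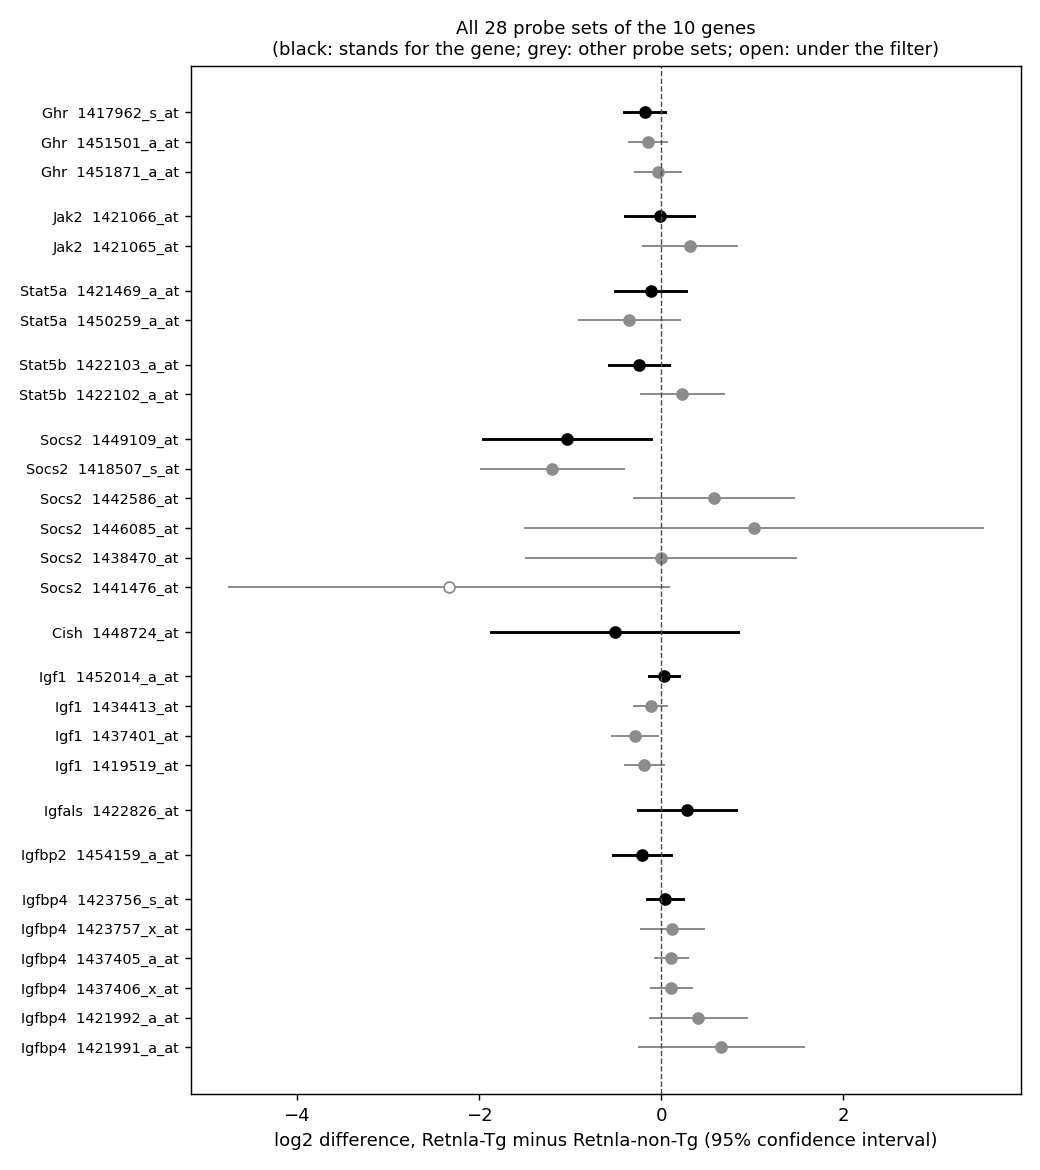
Log2 difference, Tg minus non-Tg, with its 95% confidence interval for the 28 probe sets, grouped by gene; black marks the probe set that stands for a gene, grey the others, and the open circle the probe set under the filter. The intervals of both bright Socs2 probe sets and of 1 Igf1 probe set at -0.29 lie below 0, and every other interval crosses it.

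Igfals, the acid-labile subunit that keeps IGF1 in its circulating complex, was at 11.79, 11.58 and 11.26 in Tg livers and 11.85, 11.08 and 10.85 in non-Tg livers. The highest value was that of non-Tg 1, so the groups overlapped. The log2 difference was 0.28 ± 0.24 (SE; limma adjusted p = 0.854). Without non-Tg 1 the Igfals difference was 0.58 ± 0.18 (SE, limma adjusted p = 0.591). The non-Tg mice then left, non-Tg 2 and non-Tg 3, are both on arrays with more bioC. The Igfals difference was 0.08 without non-Tg 3, 0.16 without Tg 5 and 0.20 without non-Tg 2. Igfals averaged 11.06 on the 3 arrays with more bioC and 11.74 on the 3 with less, without overlap. Within the higher and the lower set its difference between Tg and non-Tg was 0.30 and -0.17, and a fit with a block for the sets gave 0.07 ± 0.14 (SE).

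The IGF binding proteins Igfbp2 and Igfbp4 hold IGFs in blood and tissue and limit their access to the receptor. Igfbp2 was at 14.28, 14.01 and 13.85 in Tg livers and 14.52, 14.21 and 14.04 in non-Tg livers. The 2 highest values were non-Tg 1 and Tg 5, and the groups overlapped. The log2 difference was -0.21 ± 0.14 (SE; limma adjusted p = 0.83). It was -0.08 without non-Tg 1, -0.11 without Tg 7, -0.31 without non-Tg 3 and -0.32 without Tg 5. Within the higher and the lower bioC set Igfbp2 differed by -0.27 and -0.37, and the block gave -0.32 ± 0.10 (SE; limma adjusted p = 0.721).

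Igfbp4 was at 15.38, 15.24 and 15.14 in Tg livers and 15.26, 15.10 and 15.28 in non-Tg livers on its brightest probe set, so that Tg minus non-Tg was 0.04 ± 0.09 (SE; limma adjusted p = 0.943). Its sign turned with the scaling, to -0.03 when each array was centred on its median. The 5 other Igfbp4 probe sets gave 0.11 to 0.66, with SEs from 0.08 to 0.41. The dimmest of them differed most between the array sets, at 13.66, 13.33 and 12.23 in Tg livers and 13.28, 11.78 and 12.19 in non-Tg livers. In 5 of the 6 Igfbp4 probe sets the arrays with more bioC lay wholly below those with less, and over all 6 the difference between the sets ran from -0.12 to -1.36. For that dimmest probe set the difference between Tg and non-Tg was 0.25 within the higher and 0.22 within the lower set.

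Of the array controls that compare the 5′ and 3′ ends of a transcript, beta-actin and pyruvate carboxylase followed the same sets, and Gapdh did not. The 5′ minus 3′ log2 signal of Gapdh was 0.249 to 0.286 on the arrays with more bioC, inside the 0.194 to 0.339 of the others. The 5′ minus 3′ log2 signal of beta-actin was -1.19 to -1.09 on the arrays with more bioC and -0.81 to -0.74 on the others, and that of pyruvate carboxylase was -3.77 to -3.21 and -2.96 to -2.55. Of the 10 genes, Ghr and Jak2 were higher and Igfals was lower on the arrays with more bioC, without overlap, which is 3 of 10 against 19.8% of all genes. Because Tg mice make up 1 of the 3 arrays with more bioC and 2 of the 3 with less, part of such a shift enters the comparison of genotypes; its part in the results of the axis was not tested beyond the within-set values and the block.

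**Figure D4:**
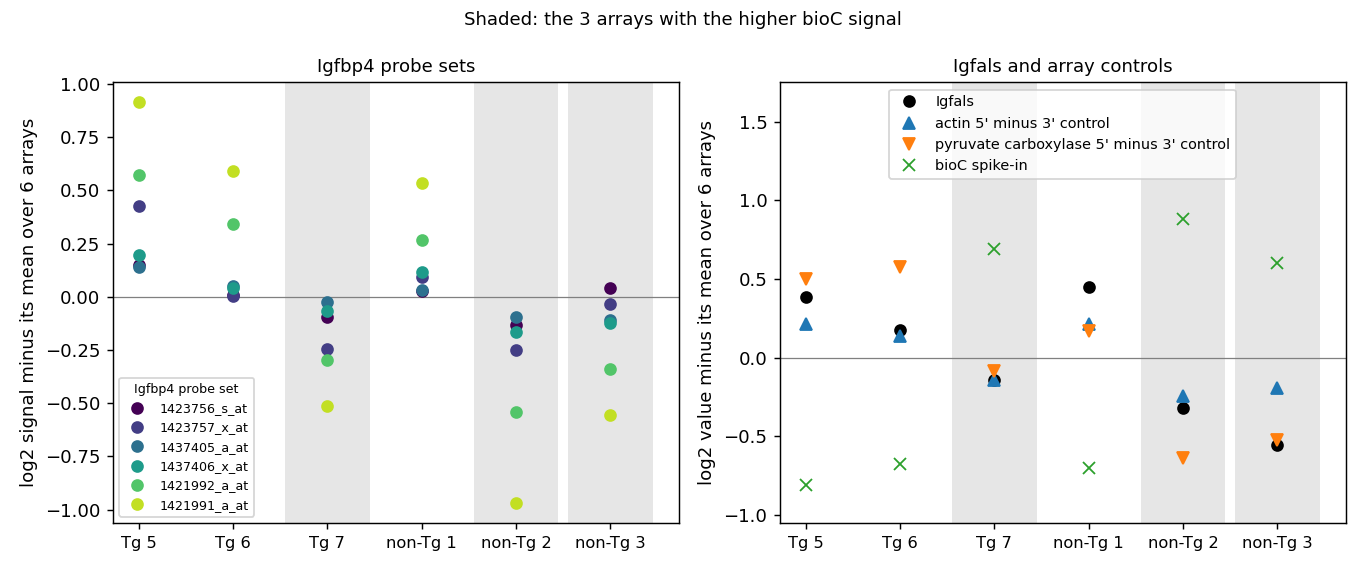
Left, the 6 Igfbp4 probe sets on each array. Right, Igfals, the 5′ minus 3′ controls of beta-actin and pyruvate carboxylase, and the bioC control. Each is a log2 value minus its mean over the 6 arrays. The Gapdh control is not drawn. Shading marks the arrays with more bioC (Tg 7, non-Tg 2 and non-Tg 3). Igfals, averaging 11.06 on the shaded and 11.74 on the other arrays, and 5 of the 6 Igfbp4 probe sets are lower on the shaded arrays without overlap.

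Other components of the axis were read from a list of 42 genes, of which 37 had a value after the filter. None passed over all genes; at an unadjusted limma p under 0.05 there were 1 higher and 2 lower, against 2.93% higher and 3.12% lower over all genes. The median log2 difference of the list was 0.02, and 24 members were higher and 13 lower; it was 0.13 without Tg 7 and 0.01 to 0.05 without each of the other mice, and -0.08 within the higher and 0.09 within the lower bioC set. The gene of smallest p was Ptpn6, which encodes the phosphatase SHP-1 that dampens JAK signalling. It was at 9.38, 9.84 and 9.69 in Tg livers, against 10.26, 10.31 and 9.83 in non-Tg livers, which is a difference of -0.50 ± 0.18 (SE; limma adjusted p = 0.787). The groups overlapped only by Tg 6 and non-Tg 3.

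Onecut1, a liver transcription factor induced by growth hormone through STAT5, was at 9.86, 9.69 and 8.53 in Tg livers and 11.01, 9.85 and 10.13 in non-Tg livers. Its lowest value was again in Tg 7, and the difference was -0.97 ± 0.37 (SE; limma adjusted p = 0.787). Within the higher and the lower bioC set Onecut1 differed by -1.46 and -1.23. Stc1, a stanniocalcin, stood on the higher side at 7.34, 7.23 and 6.69 in Tg livers and 6.20, 6.50 and 3.72 in non-Tg livers. The difference was 1.62 ± 0.72 (SE, limma adjusted p = 0.807). Stc1 was dim, and its lowest signal, in non-Tg 3, lay under the 5.63 at which means were filtered. Within the higher and the lower bioC set Stc1 differed by 1.59 and 1.09. Bcl6, a transcriptional repressor whose gene STAT5 holds down in mouse liver, was at 10.13, 10.05 and 9.85 in Tg livers and 8.71, 11.19 and 9.33 in non-Tg livers, so the Tg mice lay between the non-Tg mice.

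Among the other binding proteins Igfbp1, which is induced by fasting and held down by insulin, varied most. It was at 12.35, 13.34 and 11.44 in Tg livers and 10.37, 10.91 and 12.84 in non-Tg livers, a difference of 1.00 ± 0.61 (SE; limma adjusted p = 0.824). The direction of Igfbp1 differed between the bioC sets, at -0.43 within the higher and 2.47 within the lower. Igfbp3, which carries most circulating IGF1, differed by -0.19 ± 0.21 (SE), Igfbp5 by 0.02, Igfbp6 by -0.56 ± 0.44 (SE) and Igfbp7 by 0.01. The receptors Igf1r and Igf2r stood at -0.03 and 0.03. The further suppressors Socs1 and Socs3 stood at -0.86 ± 0.81 and -0.31 ± 0.35 (SE). In the fit given here Socs2 was the sole gene among Socs1, Socs2, Socs3 and Cish whose interval lay below 0. That depended on the fit. With the array sets as a block Cish also had an unadjusted limma p under 0.05 (0.0409). Socs2 did not reach that without the trend, with robust moderation or with probe sets averaged. Igf2 lay under the filter, and Prlr was not analysed here.

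Genes that growth hormone pulses keep high in male liver were split between both directions. Of 31 listed, 22 had a value, 12 higher and 10 lower, with a median log2 difference of 0.05. None passed over all genes, and at an unadjusted limma p under 0.05 there were 3 higher and 0 lower, against 2.93% and 3.12% over all genes. These 3 were C6, a complement component, at 13.49, 13.28 and 13.39 in Tg livers and 13.03, 12.83 and 12.65 in non-Tg livers (0.55 ± 0.11, SE; limma adjusted p = 0.432), Ugt2b38, a glucuronosyltransferase (1.14 ± 0.22, SE; limma adjusted p = 0.378), and Susd4, a complement regulator (0.56 ± 0.19, SE; limma adjusted p = 0.779). In all 3 the groups did not overlap; with Keg1 and Ugt2b1, at 0.14 each, 5 of the 22 were higher in Tg livers without overlap, against 6.04% of all genes. The steroid and drug hydroxylase Cyp2d9 stood at -0.06 ± 0.09 and the bile acid enzyme Cyp7b1 at 0.08 ± 0.11 (SE). Hsd3b5, a steroid dehydrogenase of male liver, stood at -0.16 ± 0.23, and the fatty acid elongase Elovl3 at 0.06 ± 0.26 (SE). The median of the male-biased genes ran from -0.02 to 0.07 when a mouse was left out, and took the other sign without non-Tg 1 (-0.02), non-Tg 3 (-0.01) or Tg 5 (-0.0075).

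Among genes higher in female than in male liver more had a lower than a higher Tg mean, but none passed. Of 29 listed, 17 had a value, 6 higher and 11 lower, with a median of -0.24. At an unadjusted limma p under 0.05 there were 4 lower and 0 higher, against 3.12% and 2.93% over all genes, of which 47.9% had a lower Tg mean. The steroid hydroxylase Cyp2b9 was at 6.39, 7.57 and 6.45 in Tg livers, against 9.34, 9.17 and 9.97 in non-Tg livers, with a limma adjusted p of 0.061. The fatty acid hydroxylase Cyp4a14 was at 10.22, 12.68 and 12.23 in Tg livers, against 13.87, 13.73 and 13.87 in non-Tg livers (limma adjusted p = 0.653). Nt5e, which makes adenosine outside the cell, and Vldlr, the receptor for very low density lipoprotein, stood at -0.99 ± 0.24 and -1.02 ± 0.35 (SE). In all 4 genes the groups did not overlap, against 5.64% of all genes that were lower without overlap. Of the 6 higher, Slc22a26 and Cyp17a1 had the largest differences, at 0.62 ± 0.64 and 0.60 ± 0.30 (SE). Cyp2b9, Cyp4a14 and Ugt2b38 belong to families of similar genes whose transcripts a probe set can share. The median of the female-biased genes was -0.41 within the higher and -0.20 within the lower bioC set, -0.12 without non-Tg 2, -0.42 without Tg 6 and -0.06 without Tg 7.

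A further list held 6 lipid genes known to rise in mouse liver that lacks the growth hormone receptor or STAT5, and all 6 had a lower Tg mean, against 47.9% of all genes. None passed over all genes, and 3, all lower, had an unadjusted limma p under 0.05, against 3.12% of all genes. Pparg, the nuclear receptor of fat storage, was at 7.63, 8.39 and 7.65 in Tg livers, against 8.80, 8.46 and 8.92 in non-Tg livers, which is a difference of -0.84 ± 0.26 (SE; limma adjusted p = 0.735). The fatty acid transporter Cd36 was at 10.28, 10.82 and 10.27 in Tg livers and 10.54, 11.03 and 11.25 in non-Tg livers, a difference of -0.49 ± 0.21 (SE; limma adjusted p = 0.807), and Vldlr is counted here too. Lpl, Cidec and Mogat1 stood at -0.51 ± 0.36, -0.44 ± 0.49 and -0.07 ± 0.38 (SE). The median of the 6 lipid genes was -0.50, with -0.58 within the higher and -0.15 within the lower bioC set. The lower Tg mean of all 6 held within the higher set, where Tg 7 is the only Tg mouse. Within the lower set Cd36, Mogat1 and Lpl stood at 0.0098, 0.0261 and 0.14, and only Pparg, Vldlr and Cidec were lower in Tg livers.

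**Figure D5:**
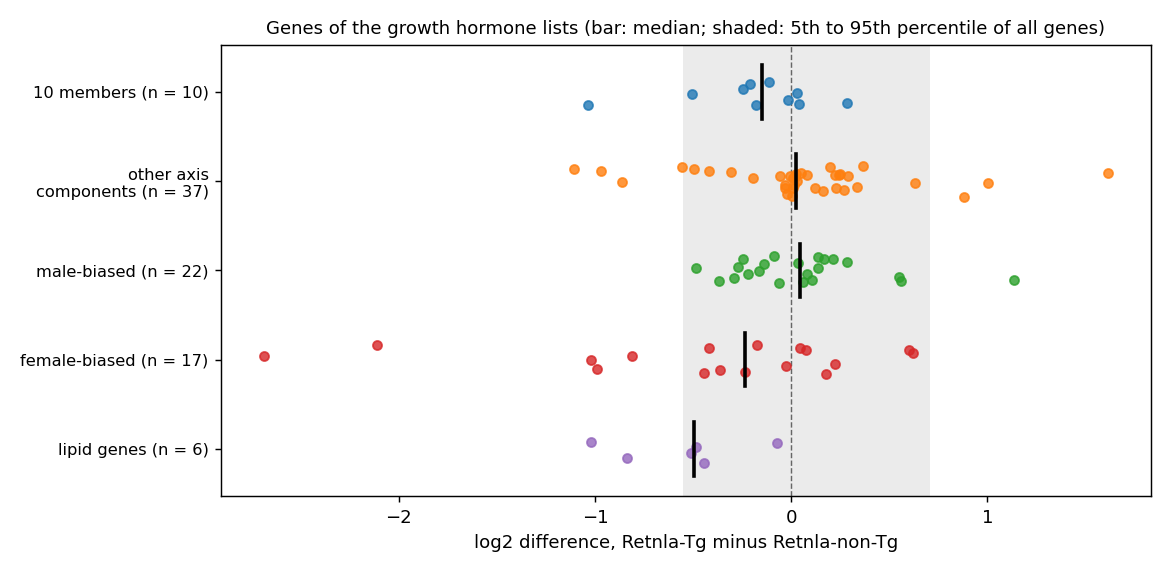
Log2 difference, Tg minus non-Tg, of the 10 genes and of 4 lists tied to growth hormone; each point is a gene, the bar is the median of a list and the shading runs from the 5th to the 95th percentile of all genes (-0.55 to 0.71). The medians run from -0.50 for the lipid genes to 0.05 for the male-biased genes, and the lowest point is Cyp2b9.

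The genes whose profile over the 6 arrays came closest to that of Socs2 were ranked by the root mean square difference between log2 profiles, each centred on its own mean. Cdc42ep2, an effector of the GTPase CDC42, came first at 0.077, where the median over 12704 genes was 0.848. It was at 7.55, 7.84 and 5.96 in Tg livers and 8.08, 7.93 and 8.47 in non-Tg livers, a difference of -1.04 (limma adjusted p = 0.807). A430046D13Rik, Cyp3a44, Sdk2 and Adam33 followed at 0.15 to 0.243, each with its lowest signal in Tg 7. The genes were chosen for their likeness to Socs2, so a low Tg 7 signal follows from the choice and is not a separate observation. A430046D13Rik, at 4.17 to 6.27, and Sdk2, at 4.84 to 6.84, were dim. Cyp3a44, a cytochrome P450 of female liver, was at 6.78, 7.30 and 5.03 in Tg livers, against 7.20, 7.19 and 7.15 in non-Tg livers. None of the 5 passed the test.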

How the data were processed

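Affymetrix Mouse Genome arrays measured liver RNA of 6 mice, starting from 5 µg of RNA per the labels' protocols. For each of 45101 probe sets the authors deposited 1 log2 signal on every array. GCOS, the Affymetrix array software, is named in the submitters' processing notes; its version, the summary algorithm and the genome build are unnamed in those notes. The antilogged values have a 2% trimmed mean of 500.0 on every array, which shows scaling to a common target, and no detection calls were used, so a dim signal cannot be told from background. Precision is limited by the number of arrays.

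The 64 control probe sets were set aside. Probe sets whose mean exceeded the 40th percentile (5.63) were kept, 27022 in all, and the brightest per gene gave 12705 genes. The genotypes were compared 2-sided in limma 3.58.1 under R 4.3.3 (lmFit, then eBayes with a trend on intensity), with Benjamini-Hochberg adjustment and a threshold of 0.05. SEs and 95% confidence intervals are the moderated ones. Further probe sets of a gene come from a separate fit of the same form over all 27022 kept probe sets. The Socs2 probe set under the filter comes from such a fit without the filter. Exact permutation tests used the 20 assignments of mice. The procedure was tested on simulated data. Promoter sequences are RefSeq's, build GRCm38.p6.

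The text names the 10 genes, Retnla, the list members with an unadjusted p under 0.05, a set of binding proteins, receptors and regulators, and the 5 genes nearest to the member of smallest p. Of the genes named to describe a list, Cyp2d9, Cyp7b1, Hsd3b5, Elovl3, Slc22a26, Cyp17a1, Lpl, Cidec and Mogat1 were added after their values were seen. Keg1 and Ugt2b1 were named for groups that did not overlap, also after their values were seen. Genes and lists were chosen with earlier results of these data known, and list counts are not independent support. The alternatives tried were other constants added before the log, filters, normalizations, moderations, array weights, averaged probe sets, the bioC array sets as a block, and leaving out each mouse.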

Additional observations from a re-analysis of the deposited data

How the results depend on the processing

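None of the 10 genes passed under any of the 18 alternative fits; Socs2 had an unadjusted limma p under 0.05 in 12 of them. Over all genes the count that passed was 2, and it was 4 with 16 added before the log, 6 with 64 added, 6 with the filter at the 20th percentile, 5 with median centring, 4 with robust moderation, and 4 with the array sets as a block; leaving out a mouse gave 2 to 3. Some differences changed sign, among them the larger ones of Cish and, on other probe sets, of Socs2, and the cause was not tested. Leaving out each mouse gave -0.134 to 0.0863 for Jak2, -0.0210 to 0.10 for Igfbp4 and -1.04 to 0.26 for Cish. Median centring gave -0.0416 for Igf1 and -0.0318 for Igfbp4. The mean of the kept probe sets gave 0.15 for Jak2 and -0.14 for Igf1, and the block gave 0.0771 for Jak2. Single other probe sets gave 0.32 for Jak2, 0.23 for Stat5b, 0.58, 1.02 and 0.0018 for Socs2, and -0.12, -0.29 and -0.18 for Igf1. Within the lower bioC set Jak2 stood at 0.0034, Igf1 at -0.0017 and Igfals at -0.17, and within the higher set Jak2 stood at 0.15 and Igfbp4 at -0.0487. Across the 18 fits Ghr, Stat5a, Stat5b, Socs2, Igfals and Igfbp2 kept their sign. No paired analysis was possible because the groups share no replicate number. With 3 mice a group, intervals were wide on dim Socs2 probe sets, such as -1.50 to 3.53 and -1.48 to 1.48. The interval of the least dim of these 4, -0.30 to 1.46, was no wider than the -1.96 to -0.11 of the brightest. No detection calls were used.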
